A study of Mus musculus with 2 samples.

Results

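The genes described here are the glutathione transferases, glutathione peroxidases, peroxiredoxins and superoxide dismutases of the mouse, with catalase and the 4 genes that make or regenerate glutathione. They were chosen by gene symbol alone, as protein-coding genes named Gsta, Gstm, Gstp, Gstt, Gsto, Gstz, Gstk, Mgst, Gpx, Prdx or Sod followed by a number, or named Cat, Gclc, Gclm, Gss or Gsr. The rule found 47 genes among the 21474 protein-coding genes with a value and among 43346 mouse gene identifiers in all.

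Polyadenylated, rRNA-depleted RNA over 200 nt from ovary was sequenced as stranded pairs of 76-base reads in 2 libraries of a single group, called replicate 1 and replicate 2. Both came from C57BL/6J females, adult littermates at 8 weeks of age, with no transgene or agent named in the labels. The labels number them as biological replicates but point both to the same donor entry, so the spread between them may be technical. There was no second condition, and the questions were how strongly each gene is expressed in ovary and how far the libraries differ.

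Glutathione is a small thiol peptide made in the cytosol and kept reduced by NADPH. Transferases join it to electrophiles, glutathione peroxidases spend it to reduce hydrogen peroxide and lipid peroxides, and peroxiredoxins do similar work with electrons from thioredoxin. Superoxide dismutases turn superoxide into hydrogen peroxide, which catalase, peroxidases and peroxiredoxins then remove. In the ovary, cells that make steroid hormones produce such oxidants in their mitochondria, and follicles and oocytes are known to depend on glutathione.

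Gene counts summed to 41124061 in replicate 1 and to 34930860 in replicate 2. Of these the 47 genes took 0.484% in replicate 1, with a 95% Wilson interval from 0.482% to 0.486%. In replicate 2 they took 0.449%, with an interval from 0.447% to 0.451%. These intervals cover counting error only. Ovarian markers were present: all 8 granulosa, all 6 theca and steroid-making and all 6 oocyte markers reached a TPM of 1 in both libraries. TPM, the share of transcripts after division by length, can be compared between genes. Oviduct and smooth muscle markers were present too. The 3 oviduct markers summed to 764 TPM in replicate 1 and 685 in replicate 2, and the 3 smooth muscle markers to 3465 and 3087. The levels given here are thus those of the whole sample, not of ovarian cells alone. Ovarian markers differed between the libraries by the exact binomial test given further on. In replicate 2, 4 granulosa markers were higher and 4 lower. Of the theca and steroid-making markers 2 were higher and 4 lower, and of the oocyte markers 1 and 3. Over all genes tested, 29.1% were higher and 27.0% lower. Some markers of other cells differed as well. All 5 red cell markers were higher in replicate 2 (summed level 1085 TPM in replicate 1 and 2254 in replicate 2), all 4 adipocyte markers were higher (2405 and 3163 TPM), and all 4 liver markers were lower (102 and 54.2 TPM). The part of these cells in the differences given further on was not tested. In a whole tissue, fewer cells of a type and less RNA per cell cannot be told apart.

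Most of the 47 genes were expressed. In both libraries 39 reached a TPM of 1, against 62.0% of all protein-coding genes. Their median level was 43.75 TPM, where the median over all protein-coding genes was 4.45 TPM. Summed, they made up 7456 TPM in replicate 1 and 7151 TPM in replicate 2. The levels were very uneven: 12 genes stood at 100 TPM or more, 23 between 5 and 100, 4 between 1 and 5, and 8 under 1. The 6 most abundant, Gstm1, Gpx1, Gstm2, Gpx4, Gstp1 and Sod1, held 65.0% of the summed TPM in replicate 1 and 65.1% in replicate 2.

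**Figure D1:**
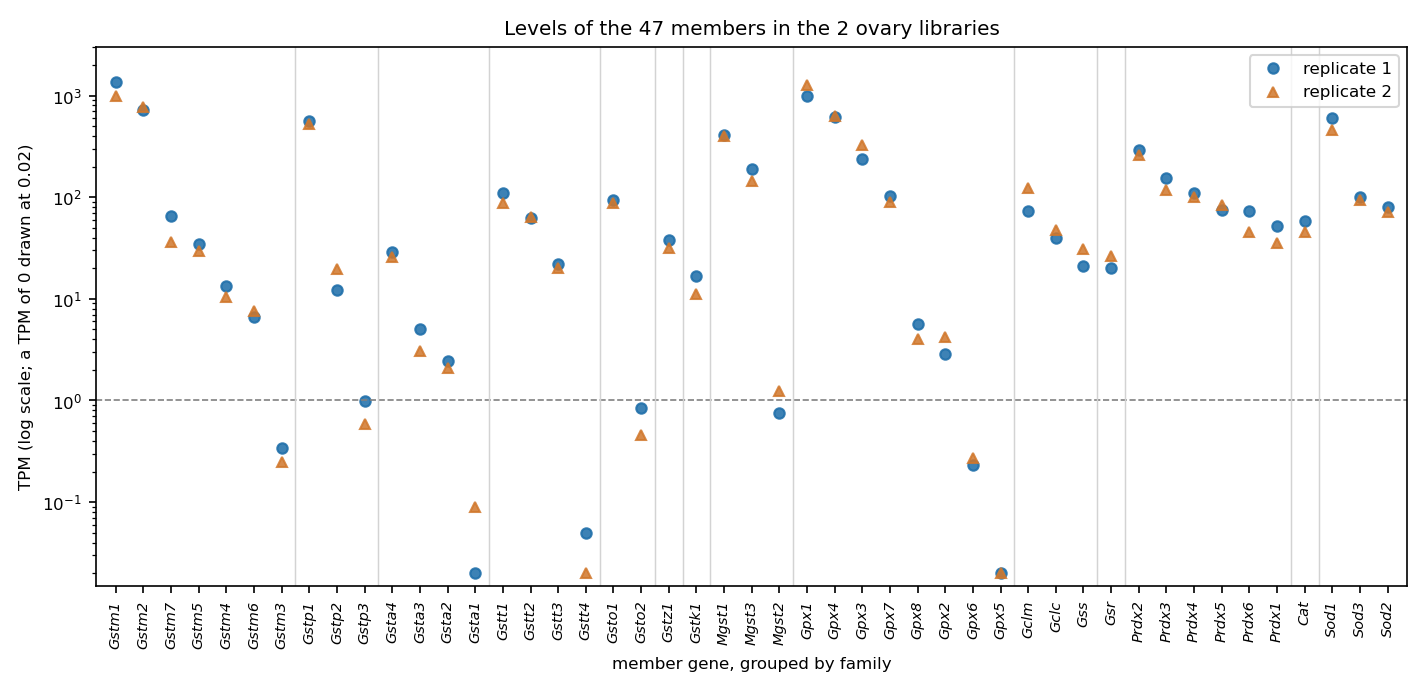
TPM of each of the 47 genes (log scale) in replicate 1 (circles) and replicate 2 (triangles), grouped by family and ordered by mean level, with a dashed line at a TPM of 1. Gstm1 and Gpx1 sit highest, at 1352 and 994 TPM in replicate 1, and 8 genes have a mean under 1.

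Transferases as a whole held 50.2% of the summed TPM in replicate 1 and 46.0% in replicate 2, and the mu class alone held 29.3% and 26.0%. Mu class transferases are cytosolic enzymes that conjugate glutathione to a wide range of electrophiles. Gstm1 (chr3:108012255-108017973) stood at 1352 TPM in replicate 1 and 999 TPM in replicate 2. Its neighbour Gstm2 stood at 712 and 775 TPM. Gstm1 thus exceeded Gstm2 in both libraries, by 1.90 times in replicate 1 and 1.29 times in replicate 2. These 2 genes ranked 80 and 145 among all protein-coding genes by mean TPM. The other 5 mu genes were far lower. Gstm7 stood at 64.9 and 36.4 TPM, Gstm5 at 34.3 and 29.5, Gstm4 at 13.4 and 10.3, and Gstm6 at 6.64 and 7.67. Gstm3 was barely present, with 11 and 7 counts and 0.340 and 0.250 TPM.

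The 7 mu genes lie side by side on chromosome 3 between 107895821 and 108044894 of mm10, a stretch of 149 kb with no other protein-coding gene inside it. In order of position they are Gstm5, Gstm7, Gstm6, Gstm3, Gstm2, Gstm1 and Gstm4. Gstm5 is on the plus strand and the others are on the minus strand. The lowest gene of the row, Gstm3, is thus next to Gstm2. In replicate 1 the TPM of Gstm1 was 3977 times that of Gstm3, and in replicate 2 it was 3996 times, although their coding sequences are 89.5% identical over 657 bases. Both ratios are imprecise, since Gstm3 had only 11 and 7 counts. The split of levels within the row was of the same order in both libraries.

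The other transferase rows had the same uneven form, with 1 or 2 genes high and a neighbour near 0. On chromosome 19, Gstp1, the main pi class transferase, stood at 567 TPM in replicate 1 and 528 in replicate 2. Gstp2, directly beside it, stood at 12.2 and 19.7 TPM and Gstp3 at 0.990 and 0.590. Gstp1 and Gstp2 share 98.1% of their 633 coding bases, so their split of reads is uncertain. The deposited posterior standard deviation of the Gstp2 count was 7.87 in replicate 1 and 13.3 in replicate 2, on 195 and 273 counts. Theta class genes sit on chromosome 10 in the order Gstt3, Gstt1, Gstt4 and Gstt2. Gstt1 stood at 109 and 87.6 TPM, Gstt2 at 62.9 and 64.2, and Gstt3 at 22.1 and 19.97, while Gstt4 had 1 count in replicate 1 and 0 in replicate 2. Of the omega pair on chromosome 19, Gsto1, which reduces oxidized ascorbate, stood at 94.6 and 88.4 TPM and Gsto2 at 0.840 and 0.460.

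**Figure D2:**
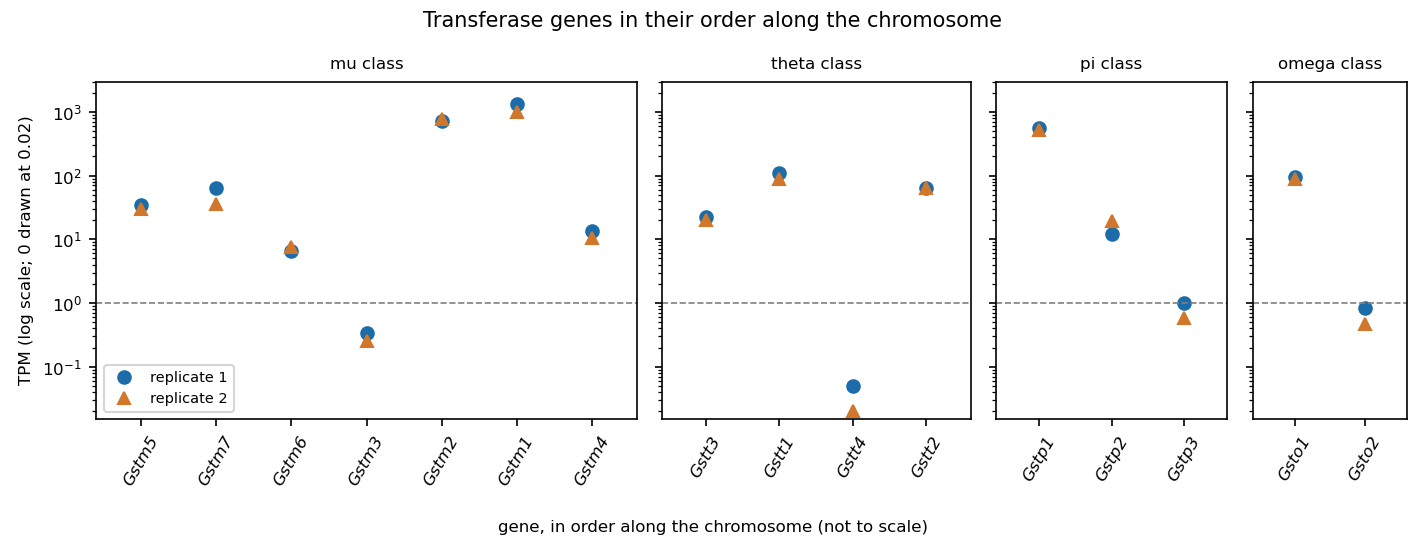
TPM (log scale) of transferase genes in 4 rows of neighbouring genes, drawn in their order along the chromosome without distances, in replicate 1 (circles) and replicate 2 (triangles). Gstm3, at 0.340 and 0.250 TPM, stands next to Gstm2, at 712 and 775 TPM, and Gstt4, with 1 and 0 counts, stands between Gstt1 and Gstt2.

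Alpha class transferases, which are abundant in liver, were low in these libraries, with a sum of 36.2 TPM in replicate 1 and 30.9 in replicate 2. Most of it was Gsta4, an enzyme that clears aldehydes from oxidized lipids, at 28.7 and 25.7 TPM. Gsta3, whose human counterpart isomerizes steroid precursors, stood at 5.08 and 3.08 TPM on 104 and 55 counts. Gsta2 stood at 2.42 and 2.10 TPM. Gsta1 had 0 counts in replicate 1 and 1 in replicate 2, and its coding sequence is 97.9% identical to that of Gsta2. A count of 0 allows up to 3 counts, or 0.0730 CPM (counts scaled to the library total) in replicate 1. Single genes of 2 further classes were moderate. Gstz1, which acts in tyrosine breakdown, stood at 38.1 and 32.0 TPM, and Gstk1, found in mitochondria and peroxisomes, at 16.9 and 11.1 TPM.

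Microsomal transferases belong to a separate family of membrane enzymes. Mgst1, which also acts as a peroxidase in the endoplasmic reticulum and mitochondria, stood at 410 TPM in replicate 1 and 403 in replicate 2. Mgst3 stood at 190.2 and 145 TPM. Mgst2, which can make leukotriene C, lay near the threshold at 0.750 and 1.24 TPM, on 23 and 22 counts.

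Glutathione peroxidases held 26.3% of the summed TPM in replicate 1 and 32.5% in replicate 2. Some of them carry selenocysteine at the active site, an amino acid encoded by TGA, which otherwise is a stop codon. The annotation marks such a codon in Gpx1, Gpx2, Gpx3 and Gpx4 and in no other of the 47 genes. The stretches around it are shown because they separate the family into selenium-dependent and cysteine forms. Each is 27 bases of the spliced coding sequence from GENCODE M21, 5′ to 3′, with the marked codon, or in Gpx5 to Gpx8 the codon that aligns with that of Gpx1, in capitals.
Gpx1: gtcgcgtctctcTGAggcaccacgatc
Gpx2: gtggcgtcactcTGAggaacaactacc
Gpx3: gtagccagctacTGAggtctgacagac
Gpx4: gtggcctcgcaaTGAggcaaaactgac
Gpx5: gtggctacctatTGCggtctgacaatc
Gpx6: gtggcatccttcTGTggcctgacagct
Gpx7: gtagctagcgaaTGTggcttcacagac
Gpx8: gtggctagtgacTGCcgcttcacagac
The aligned codon is TGA in the 4 selenium forms and a cysteine codon, TGC or TGT, in the other 4. On mm10 the marked codons lie at chr9:108339451-108339453 in Gpx1 and at chr10:80054737-80054739 in Gpx4, both on the plus strand.

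The 4 genes with an annotated selenocysteine codon held most of the peroxidase level, although much of Gpx1 was assigned to a transcript whose annotated coding sequence lacks that codon, as given further on. Gpx1, the cytosolic peroxidase, stood at 994 TPM in replicate 1 and 1268 in replicate 2, and was the most abundant of the 47 genes in replicate 2. Gpx4 stood at 619 and 629.7 TPM. It reduces peroxides within membranes and is known for holding back ferroptosis, a death by lipid peroxidation. Gpx3, the secreted peroxidase of plasma, stood at 239 and 328 TPM. Gpx2, best known from gut epithelium, was low at 2.88 and 4.20 TPM.

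Of the cysteine forms, only Gpx7, a peroxidase of the endoplasmic reticulum, was well expressed, at 102 and 88.7 TPM. Gpx8, of the same compartment, stood at 5.66 and 4.01 TPM. Gpx6 had 7 counts in each library and Gpx5, a peroxidase of the epididymis, had 0 in both. Among the 4 other markers of epididymis and testis, Lcn5 and Prm1 also had 0 counts in both libraries, and the 5 genes together summed to 0.890 and 0.290 TPM.

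The genes that make glutathione were of moderate level. Gclm, the modifier subunit of the rate-limiting ligase, stood at 72.3 TPM in replicate 1 and 124 in replicate 2. Gclc, the catalytic subunit, stood at 39.8 and 47.6 TPM. Gss, which completes the peptide, stood at 21.1 and 31.0 TPM, and Gsr, which reduces oxidized glutathione with NADPH, at 19.9 and 26.5. The TPM of each was higher in replicate 2 with all transcripts summed. Their sum of 153 and 229 TPM was 2.05% and 3.20% of the summed level of the 47 genes. Protein-coding transcripts alone gave other values for 2 of them: Gclm then stood at 10.2 and 11.8 TPM, below Gclc, and Gss at 13.0 and 12.4 TPM, not higher in replicate 2.

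All 6 peroxiredoxins reached a TPM of 1 in both libraries. Prdx2, a cytosolic enzyme that is also abundant in red cells, stood at 289 TPM in replicate 1 and 259.7 in replicate 2, the highest with all transcripts summed. In protein-coding transcripts alone Prdx2 stood at 152 and 113 TPM, not above mitochondrial Prdx3. Prdx3 stood at 154 and 119 TPM, and Prdx4, of the endoplasmic reticulum, at 109 and 101.5. Prdx5, found in several compartments, stood at 75.1 and 84.7 TPM. Prdx6, which reduces oxidized phospholipids, stood at 73.1 and 45.1 TPM, and Prdx1, the other cytosolic form, at 51.8 and 35.7. Prdx2 exceeded Prdx1 by 5.59 times in replicate 1 and 7.27 times in replicate 2, and by 2.94 and 3.18 times in protein-coding transcripts alone.

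Among the remaining enzymes, Sod1, the cytosolic copper and zinc dismutase, stood at 604 TPM in replicate 1 and 454 in replicate 2. Sod3, the secreted form, stood at 100.3 and 93.5 TPM, and Sod2, the mitochondrial manganese form, at 79.5 and 71.0. Sod1 thus exceeded Sod2 by 7.60 and 6.40 times. Catalase (Cat), the peroxisomal enzyme that splits hydrogen peroxide, stood at 58.7 and 45.7 TPM.

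The level of a gene sums its annotated transcripts, and for some genes most of it was assigned to forms that do not encode the full protein. Shares are the authors' estimated percent of the gene's TPM. Forms were compared in the 23 genes that have 2 or more annotated transcripts and average 100 counts or more. In 20 of these the same transcript led in both libraries, and in 11 it held over 90% in both. In 4 genes, Gclm, Gss, Prdx2 and Prdx6, transcripts annotated as protein-coding held under 50% of the TPM in at least 1 library.

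For Gclm, the 762-base form Gclm-202, annotated as a processed transcript, held 85.9% in replicate 1 and 90.4% in replicate 2. The gene spans chr3:122245557-122270732. Gclm-202 shares the second exon of the full-length form Gclm-201 and the end of its first exon, and closes with a 296-base exon that Gclm-201 lacks. For Gss, the form Gss-209 took 35.8% in replicate 1 and 58.1% in replicate 2. The higher TPM of Gss in replicate 2 was thus in a form annotated as non-coding.

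For Prdx6 the leading form differed between the libraries. Prdx6-207, a processed transcript, held 61.2% in replicate 1 and 31.4% in replicate 2, where the protein-coding Prdx6-202 held 38.7%. Protein-coding Prdx6 forms stood at 11.6 and 17.9 TPM, in the opposite order to the gene's TPM. For Prdx2, 2 forms with a retained intron held 23.5% each in replicate 1 and 29.3% and 26.5% in replicate 2.

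Within the glutathione peroxidases, the estimated forms also moved. Gpx4-202 held 94.1% of Gpx4 in replicate 1 and 79.1% in replicate 2, and a 280-base form with a retained intron, Gpx4-203, held 1.46% and 15.3%. Counting protein-coding forms alone, Gpx4 stood at 594 and 516 TPM. Gpx1-202 held 77.2% and 91.0% of Gpx1, and Gpx1-201 held 22.5% and 8.81%. The annotated coding sequence of Gpx1-202 starts 30 bases downstream of the selenocysteine codon shown for Gpx1, but its first exon includes that codon. Its second exon starts 3 bases later than that of Gpx1-201. Short reads assign such similar forms with uncertainty. Mgst1 was shared between Mgst1-204, with 70.3% and 55.1%, and Mgst1-205, with 26.1% and 43.5%. In 10 of the 23 genes some form shifted by over 10 percentage points.

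**Figure D3:**
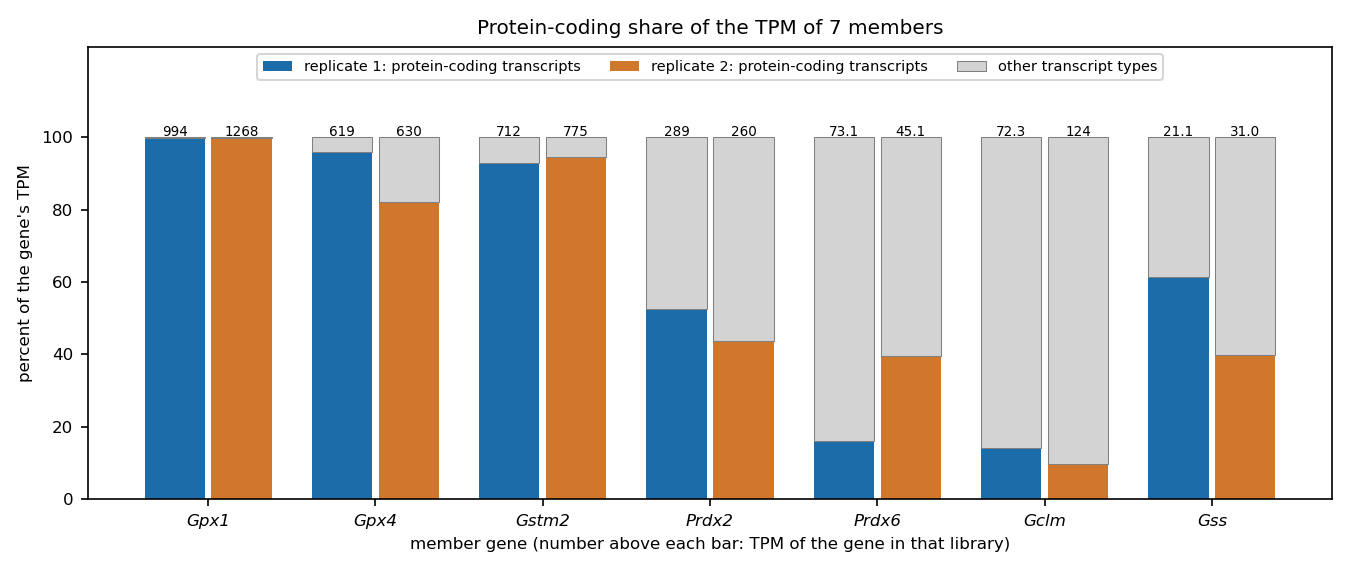
Percent of each gene's TPM held by transcripts annotated as protein-coding (coloured) and by other types (grey), for 7 of the genes in each library, with the gene's TPM above each bar. Protein-coding forms hold 99.8% of Gpx1 in replicate 1 but 14.1% of Gclm, and the share of Gss is 61.5% in replicate 1 and 39.9% in replicate 2.

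The libraries were then compared on scaled counts, which sum all transcripts of a gene. These counts are not divided by length, so a change in the forms present can alter them. The split of reads between similar genes, as for Gstp1 and Gstp2, also enters them. A two-sided exact binomial test compared the reads of the libraries, not conditions, with Benjamini-Hochberg adjustment over the 15939 genes that average 20 counts or more. Of the 41 genes with enough counts, 10 were higher and 19 lower in replicate 2 at an adjusted p under 0.05, and 12 passed in neither direction. Over all genes tested, 56.1% passed, 29.1% higher and 27.0% lower. The shares are not matched for depth: the median of the mean counts was 2178 for the 41 genes and 727.5 for all genes tested. Among all genes averaging 100 counts or more, 63.5% passed, 32.6% higher and 30.9% lower. Below 0 were the log2 ratios of 27 of the 41, against 50.8% of all genes tested. The median log2 ratio of the 41 was -0.12, against -0.0056 over all genes tested. None of the 41 was over 2-fold apart, where 3.99% of all genes tested were (1.71% lower in replicate 2). The directions are relative to the other genes: on the scale of the added spike-in RNAs the median of all genes tested moves from -0.0056 to -0.44, and only Gclm and Gstp2 of the 10 higher genes still passed as higher.

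The genes that make and recycle glutathione were higher in replicate 2, 4 of 4, on the scale of all genes, where 29.1% of all genes tested were higher. Gclm had 2301 counts in replicate 1 and 2866 in replicate 2, a log2 ratio of 0.62 (counting SE 0.040). Gsr had 1441 and 1607 counts and a ratio of 0.46, Gss 836 and 844 counts and 0.31, and Gclc 3762 and 3768 counts and 0.30. On the spike-in scale Gclm still passed as higher, Gclc turned to lower, and Gss and Gsr passed in neither direction. Gss also lost its call with Bonferroni adjustment. The Gclm forms split the Gclm count unequally: the full-length Gclm-201 had 1306 and 1333 expected counts and Gclm-202 had 982 and 1531. Of Gss, the protein-coding Gss-201 had 640 and 515 expected counts, and Gss-209, annotated as non-coding, had 135 and 278.

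Of 6 peroxiredoxins 4 were lower in replicate 2 and none higher, where 27.0% of all genes tested were lower. Prdx1, on 3142 and 1794 counts, had a log2 ratio of -0.51 (counting SE 0.043), Prdx3 -0.31, Prdx2 -0.27 and Prdx6 -0.17, the last on all transcripts, since its protein-coding TPM was higher in replicate 2. Prdx4, at -0.030, and Prdx5, at 0.043, did not pass. All 3 dismutases were lower, Sod1 by a log2 ratio of -0.30, Sod2 of -0.12 and Sod3 of -0.058, and Cat passed as lower with -0.32. Sod3 and Prdx6 no longer passed with Bonferroni adjustment. The median absolute log2 ratio was 0.30 over the 41 genes and 0.23 over all genes tested.

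The glutathione peroxidases were split. Gpx1, on 18325 and 18914 counts, had a log2 ratio of 0.34 (counting SE 0.015), Gpx3 of 0.41, and Gpx2, on 72 and 89 counts, of 0.60. All 3 passed as higher, and on the spike-in scale Gpx1 turned to lower and Gpx2 and Gpx3 no longer passed. Gpx4, at -0.097, and Gpx7, at -0.14, passed as lower. With all transcripts summed, however, the TPM of Gpx4 was slightly higher in replicate 2. Gpx7 no longer passed with Bonferroni adjustment. Gpx8, at -0.42 on 132 and 80 counts, did not pass.

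Of 21 transferases with enough counts, 3 were higher and 9 lower in replicate 2, against 29.1% higher and 27.0% lower of all genes tested. Within the mu row the abundant neighbours went in opposite directions, and their levels were closer to each other in replicate 2. Gstm1 had 41936 and 26217 counts and a log2 ratio of -0.38 (counting SE 0.011), while Gstm2 had 17107 and 15993 counts and a ratio of 0.20, which became -0.23 with spike-in scaling. Gstm7, on 2064 and 1001 counts, had the lowest ratio of those that passed, -0.74 (counting SE 0.056), and Gstm4 had -0.31. Gstm5, at -0.15, and Gstm6, at 0.25, did not pass.

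Over 1.5-fold apart and past the test were 2 genes lower in replicate 2, Gstm7 and Gsta3, and 3 higher, Gstp2, Gclm and Gpx2. Over all genes tested 13.7% did so, 5.51% lower and 8.17% higher. Gsta3 had a log2 ratio of -0.61 (counting SE 0.24) and an adjusted p of 0.0206 by the exact binomial test with Benjamini-Hochberg adjustment. Gstp2 had a log2 ratio of 0.78 (counting SE 0.13) and an adjusted p of 2.24e-08 by the same exact test, and Gpx2 an adjusted p of 0.0175. Gsta3 and Gpx2 no longer passed with Bonferroni adjustment. Gstp1 had -0.0083 and did not pass, and the pi class counts summed, 9077 in replicate 1 and 7446 in replicate 2, had a log2 ratio of 0.013. Gstk1 (-0.53), Gstt3 (-0.34), Mgst3 (-0.32), Gstt1 (-0.25) and Gstz1 (-0.20) also passed as lower. Mgst1, at 0.22, passed as higher, but its TPM was slightly lower in replicate 2 and its ratio turned on the spike-in scale. Gsta4, Gsta2, Gstt2, Gsto1, Gsto2 and Mgst2 did not pass in either direction.

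**Figure D4:**
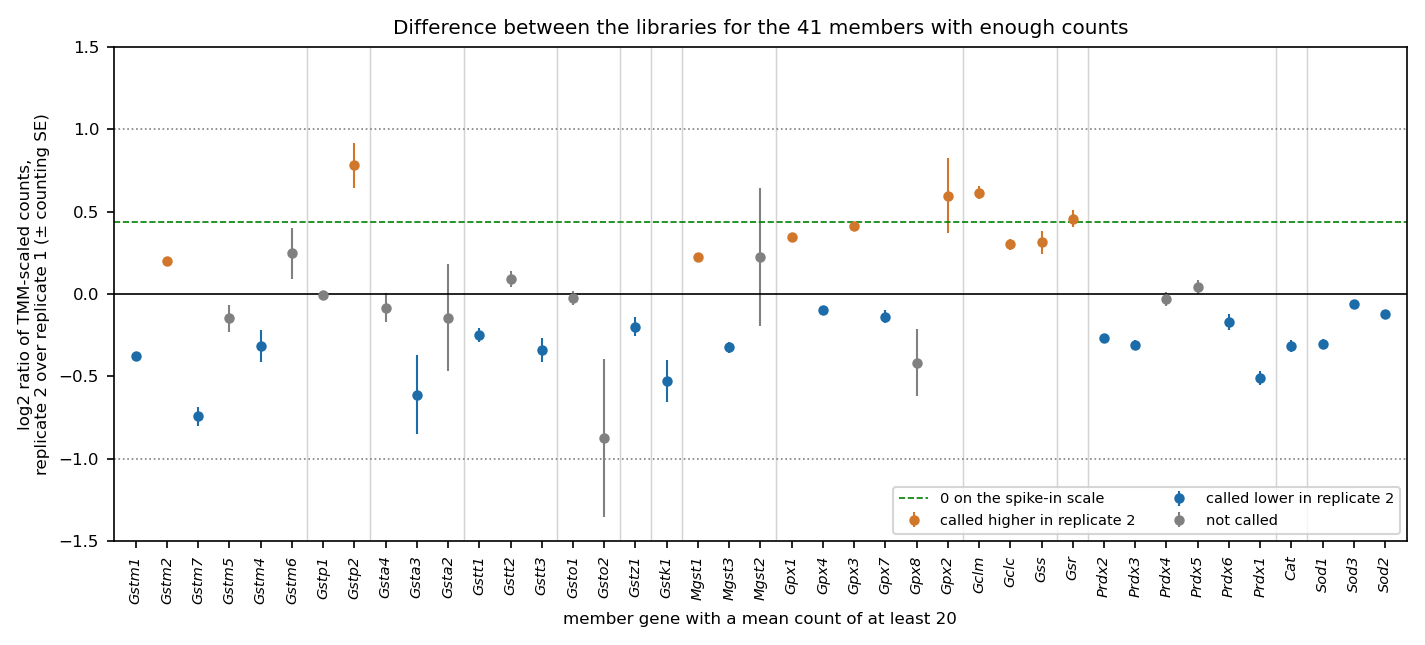
Log2 ratio of scaled counts, replicate 2 over replicate 1, for the 41 genes averaging 20 counts or more, with counting standard errors. Colours give the call by the exact binomial test, dotted lines mark 2-fold, and the dashed green line is the place of 0 on the spike-in scale. Genes of glutathione synthesis lie above 0, from 0.30 to 0.62, and the dismutases and catalase below it.

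Promoters were searched for the core of the antioxidant response element, the site through which the factor Nrf2 (gene Nfe2l2) acts. The core was written TGACNNNGC and sought on both strands of windows from 250 bases before to 50 after each annotated start, taken from RefSeq on GRCm38.p6, which is mm10. Of the 47 genes 41 had a window, while Gclc, Gsr, Gsta4, Gstt2, Prdx6 and Sod3 had none and were not searched. In 7 of the 41 (17.1%) a window held the core. Among 16317 protein-coding genes with a window the share was 15.1%, so the genes were near the background. Per window of 300 bases the shares were 13.2% and 13.1%. The 7 sites are shown because these genes moved in different directions between the libraries. Each is given on the gene's own strand with the core, or its reverse complement, in capitals.
Gclm, chr3:122245413-122245441: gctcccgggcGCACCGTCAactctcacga
Gsta3, chr1:21240454-21240482: aactcaggcaTGACATTGCatttttcttc
Gstm5, chr3:107895802-107895830: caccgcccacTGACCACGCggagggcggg
Gstm7, chr3:107931725-107931753: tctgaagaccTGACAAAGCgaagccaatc
Mgst1, chr6:138140461-138140489: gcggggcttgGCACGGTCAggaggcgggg
Prdx1, chr4:116685456-116685484: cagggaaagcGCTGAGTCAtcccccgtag
Sod1, chr16:90220696-90220724: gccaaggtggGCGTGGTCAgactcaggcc
Gstm7 is on the minus strand and the others are on the plus strand. In Prdx1 alone the core overlaps TGAGTCA, a site of AP-1 factors. Gclm and Mgst1 passed as higher in replicate 2, Gsta3, Gstm7, Prdx1 and Sod1 as lower, and Gstm5 in neither direction.

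Other genes of the pathway were described from lists of related function. Their counts are to be read against the 29.1% higher and 27.0% lower among all genes tested, and on the spike-in scale against 7.16% higher and 71.7% lower. Of 18 regulators and targets of Nrf2 outside the families, 8 passed as higher and 4 as lower in replicate 2, and their median log2 ratio was 0.038. On the spike-in scale 2 were higher and 16 lower. Nfe2l2 stood at 53.9 TPM in replicate 1 and 48.3 in replicate 2, and its inhibitor Keap1 at 151 and 173. The highest were the autophagy receptor gene Sqstm1, at 357 and 349.9 TPM, the related factor gene Nfe2l1, at 331 and 213 (log2 ratio of scaled counts -0.097), and Slc3a2, the partner of the cystine carrier, at 176 and 171. The usual target Nqo1 was low at 4.14 and 4.07 TPM. Maff, a small partner of Nrf2, was over 2-fold higher in replicate 2, with 390 and 651 counts and a log2 ratio of 1.04.

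The thioredoxin and glutaredoxin list includes genes that supply or repair the peroxiredoxins, and others that do not. Of its 16 genes, 8 passed as higher and 3 as lower in replicate 2, and their median log2 ratio was 0.16. On the spike-in scale 2 were higher and 11 lower. Txnip, an inhibitor of thioredoxin, was highest at 983 and 869.6 TPM, followed by mitochondrial thioredoxin Txn2 at 215.5 and 228 and glutaredoxin Glrx5 at 116 and 117. Srxn1, which repairs overoxidized peroxiredoxins, had a log2 ratio of 1.05 on 2542 and 4275 counts. Its TPM went the other way, at 83.2 in replicate 1 and 71.7 in replicate 2. Of 12 selenoprotein synthesis genes, 5 were higher and 3 lower (1 and 8 on the spike-in scale), led by the selenium carrier Selenop at 260 and 182 TPM. Pstk and Lrp8 followed at 61.1 and 111 TPM and at 45.1 and 45.7 TPM, Lrp8 with a log2 ratio of scaled counts of -0.51.

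Of 10 NADPH-supplying genes, 7 passed as lower and 2 as higher in replicate 2, with -0.19 as their median log2 ratio. On the spike-in scale 9 were lower and 1 higher. Pgls, of the pentose phosphate pathway, stood at 305 and 453 TPM, Idh2 at 231 and 192, and Pgd at 177 and 143. Glutathione breakdown and export had 4 higher and 4 lower of 16 (1 and 11 on the spike-in scale), near the share of all genes, led by Ggt5, a gamma-glutamyl transferase of the cell surface, at 198 and 212 TPM. Oplah and Abcc5 followed at 99.3 and 91.1 TPM and at 72.0 and 72.3 TPM. In that list Chac1, which degrades glutathione, had 155 and 304 counts and a log2 ratio of 1.26. Sources of superoxide and peroxide had 2 higher and 2 lower of 13 with enough counts (1 and 7 on the spike-in scale), led by Cyba, an oxidase subunit, at 172 and 233 TPM. Rac2 stood at 20.5 and 24.5 TPM, and Nox3 had 0 counts in both libraries. Of 15 tested genes for dismutase and glutathione cofactors and transferase-like proteins, 4 were higher and 8 lower, and on the spike-in scale 0 and 13. The highest were Vars at 323 and 369.6 TPM, Eef1g at 359 and 297, and Clic1 at 139 and 128.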

How the data were processed

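The authors deposited, per library, a gene and a transcript table on build mm10 with GENCODE M4, as the notes deposited with them state. Which aligner and quantifier made them, and whether strand was used, is, in the sources used here, not given. The deposited expected counts estimate how many read pairs came from each gene or transcript. The deposited TPM and FPKM are divided by effective length. The deposited percent of a transcript is its share of the gene's TPM. Tables on mm9 were not used here.

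Alternatives changed the scaling, count filter, prior count, adjustment, count estimate and TPM threshold. Symbols and types came from GENCODE M21 (42462 of 43346 identifiers matched). Expected counts were rounded, genes averaging 20 counts or more kept, and libraries scaled by TMM (edgeR 4.0.16, R 4.3.3). Spike-in rows (0.764% and 0.986% of counts) were left out. Log2 ratios used a prior count of 1. Between 2 single libraries a quasi-likelihood test in edgeR leaves no residual degrees of freedom, so a two-sided exact binomial test with Benjamini-Hochberg adjustment at 0.05 was used, tested on simulated data. DESeq2 1.42.0 gave other size factors. Other steps used Python 3.11.15, scipy 1.17.1 and Biopython 1.88.

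The genes and lists were chosen with earlier results of these data known. Named with levels were members at a mean of 5 TPM or more. Named with ratios were those over 1.5-fold apart and called, and the 3 highest of each family. From each pathway list came the 3 highest and any over 2-fold apart. A gene of these is not reported here. The other members and Nfe2l2, Keap1, Nqo1 and Nox3 were named after their values were seen. Columns of other samples numbered 0.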

Additional observations from a re-analysis of the deposited data

How the results depend on the processing

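Scaling by the spike-in total moved the results most: 2 members were then called higher and 32 lower, the median log2 ratio was -0.55, and 3 members (Gstm7, Gsta3 and Gsto2) were over 2-fold apart. On that scale 7.16% of all genes tested were higher and 71.7% lower. Among members called before, ratios that changed sign there were Mgst1 (-0.21), Gpx3 (-0.024), Gss (-0.12), Gclc (-0.13), Gstm2 (-0.23) and Gpx1 (-0.090). Among those not called before, Prdx5 (-0.39), Gstt2 (-0.34), Gstm6 (-0.19) and Mgst2 (-0.19) changed sign. Of these, Prdx5 and Gstt2 then passed as lower. On log2(TPM + 1), Mgst1 (-0.022) and Gpx4 (0.024) changed sign. With Bonferroni adjustment 11 members were lower and 8 higher, and the calls of Gstt3, Gstz1, Gsta3, Prdx6, Gss, Gstm4, Gpx7, Gstk1, Gpx2 and Sod3 were lost. With no filter on counts 1 member, Gsta1, was over 2-fold apart, on 0 and 1 counts. DESeq2 size factors, posterior mean counts, a prior count of 5, no filter and a minimum of 100 counts changed no call among the members compared. Members detected ranged from 39 to 40 with either library left out, were 44 at 0.1 TPM and 35 at 5 TPM. Protein-coding transcripts alone, an alternative chosen after seeing the data, summed to 67.4 TPM for glutathione synthesis, 507 for peroxiredoxins and 6892 for all 47 genes. Of the pathway lists, scaled by the spike-in total after seeing the data, those higher and lower numbered 1 and 9 for NADPH supply, 2 and 16 for Nrf2, 1 and 11 for breakdown and export, 1 and 8 for selenoprotein synthesis, 1 and 7 for oxidant sources, 0 and 13 for cofactors, and 2 and 11 for thioredoxin and glutaredoxin. The cause of these changes was not tested. The same 20 genes of 23 kept their leading transcript under posterior mean shares. No paired analysis was possible because the libraries belong to 1 group. With 2 libraries and no molecular identifiers, the errors given cover counting only.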

Other observations

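Counts and TPM disagreed for some genes whose transcript forms were assigned differently. Srxn1 had 2542 counts in replicate 1 and 4275 in replicate 2, but 83.2 and 71.7 TPM, with an effective length of 1034 and 2425 bases. Prdx6 had an effective length of 949.6 bases in replicate 1 and 1333 in replicate 2, and its ratio was -0.17 on scaled counts and -0.68 on log2(TPM + 1). Nfe2l1 went from 1963 to 2789 bases, with 331 and 213 TPM and a ratio of -0.097 on scaled counts. Lrp8 went from 1847 to 1249 bases, with 45.1 and 45.7 TPM and a ratio of -0.51 on scaled counts. Gss went from 1342 to 1107 bases, with a ratio of 0.31 on scaled counts and 0.54 on log2(TPM + 1).

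A processed pseudogene of the pi class on chromosome 1, Gstp-ps, had 55 counts in replicate 1 and 84 in replicate 2 and 4.58 and 8.00 TPM. Prdx6b, a protein-coding relative of Prdx6 that the naming rule leaves out, had 0 counts in both libraries. The pseudogenes Prdx6-ps2 and Prdx2-rs3 also had 0 counts in both.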
